A study of Yarrowia lipolytica with 8 samples.

Results

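The genes described here are 6 polyol-forming reductase genes of the oleaginous yeast *Yarrowia lipolytica*. They were chosen by locus tag and annotation, though with earlier results of these data known. YALI0_B16192g and YALI0_D18964g are the 2 mannitol dehydrogenase-type genes. The 4 aldose or erythrose reductase-type genes are YALI0_F18590g, YALI0_D07634g, YALI0_C13508g and YALI0_C09119g. All 6 were found among the 6394 genes of the deposited expression tables. Each had at least one KEGG hit with an oxidoreductase EC number, so that none was left out.

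RNA of strain ACA DC 50109 was sequenced from nitrogen-limited fermentations on an equal mixture of glucose and glycerol, all sampled after nitrogen limitation. In the pO2-controlled cultivation the dissolved oxygen was kept at 50% air saturation. In the pO2-uncontrolled cultivation it was left free. Samples were taken from each before and after glycerol became limiting, as 2 biological replicates in each of the 4 groups and 8 libraries in all. The groups are pO2-1 (controlled, before), pO2-2 (controlled, after), pO2-UN-2 (uncontrolled, before) and pO2-UN-3 (uncontrolled, after). The sample labels give the oxygen control but not the phase, which was taken from the study's supplementary headings and, for pO2-UN-2, by exclusion. All groups share the strain, the substrates and the nitrogen limitation, and a culture on glucose or glycerol alone was not analysed here. No label says whether replicates came from separate cultures, so p-values measure the spread between these libraries, which may be technical.

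*Y. lipolytica* forms mannitol, erythritol and arabitol as overflow products and osmolytes, and the amounts depend on the carbon source, osmotic pressure and oxygen supply. Erythritol is made from erythrose 4-phosphate of the pentose phosphate pathway, which is dephosphorylated to erythrose and then reduced by erythrose reductases, enzymes of the aldo-keto reductase family that usually use NADPH. Mannitol is made by the reduction of fructose through mannitol dehydrogenases, many of them short-chain dehydrogenases. Both steps oxidise a reduced cofactor.

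The KEGG hits marked all 6 genes as oxidoreductases, but neither these nor the GO terms named a mannitol dehydrogenase or an erythrose reductase. The aldo-keto reductase family was named for YALI0_C13508g alone. YALI0_B16192g lies on chromosome B of the CLIB122 assembly, positions 2135895 to 2136731 on the plus strand, and YALI0_D18964g on chromosome D, positions 2400420 to 2401190 on the plus strand. Their coding lengths were 837 bp and 771 bp. Both had the same *Aspergillus fumigatus* protein as their best KEGG hit, an oxidoreductase of undefined substrate, with e-values of 7e-64 and 6e-54, and both had a weaker hit to 2-deoxy-D-gluconate 3-dehydrogenase. YALI0_F18590g (chromosome F, 2482991 to 2483962, plus strand, 972 bp) had a fungal alcohol oxidoreductase of undefined substrate as its best hit, with an e-value of 1e-96. YALI0_D07634g (chromosome D, 985862 to 986812, minus strand, 951 bp) had an e-value of 4e-94 for its best hit. It was the only one of the 6 with an aldehyde reductase hit, to the aldose reductase Gre3 of *Saccharomyces cerevisiae*, and with the GO term for an alditol:NADP+ oxidoreductase. YALI0_C13508g (chromosome C, 1857868 to 1858809, plus strand, 942 bp, e-value 1e-62) carried the GO term aldo-keto reductase (NADP) and a weaker hit to D-arabinose 1-dehydrogenase. YALI0_C09119g (chromosome C, 1240464 to 1241396, minus strand, 933 bp, e-value 4e-63) had another gene of this yeast, YALI0_B07117g, as its best hit. The names mannitol dehydrogenase-type and erythrose reductase-type therefore come from the definition of the gene set, and neither substrate nor activity was measured.

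Expression is given as FPKM, the fragment number of a gene relative to its exon length and the size of the library, which allows levels of different genes to be set side by side per length. The depth behind the values was read from the steps between low FPKM values and was 5125000 to 5385000 fragments per library, with 5901 to 6201 genes at an FPKM of at least 1. The pO2-uncontrolled replicates differed far more from each other than the controlled ones. For genes of 10 fragments or more, replicate variance was on average 1.18 times the sampling noise in pO2-1 and 1.26 times in pO2-2, against 20.8 times in pO2-UN-2 and 17.1 times in pO2-UN-3. The medians over these genes lay closer together, at 0.496, 0.530, 2.89 and 2.99 times in the same order. Each FPKM value was scaled within its own library, and the 2 cultivations were deposited in separate tables. Oxygen control and any difference in the handling of the tables cannot be told apart, nor can a lower share of a transcript and a lower amount per cell. The samples after glycerol limitation were also taken later in the fermentation, so limitation and culture time cannot be told apart.

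The levels differed widely between the genes. YALI0_D18964g and YALI0_F18590g were among the most expressed genes of the genome, ranking between 58 and 242 and between 81 and 379 of 6394 across the libraries. YALI0_D07634g and YALI0_C13508g were expressed at intermediate levels, with ranks of 431 to 1232 and 595 to 1109. YALI0_C09119g (ranks 4528 to 5894) and YALI0_B16192g (ranks 5500 to 6183) were low in all 8 libraries. Each of the 6 genes passed the minimum FPKM of 1 in 2 libraries in all comparisons, so that all were tested throughout.

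**Figure D1:**
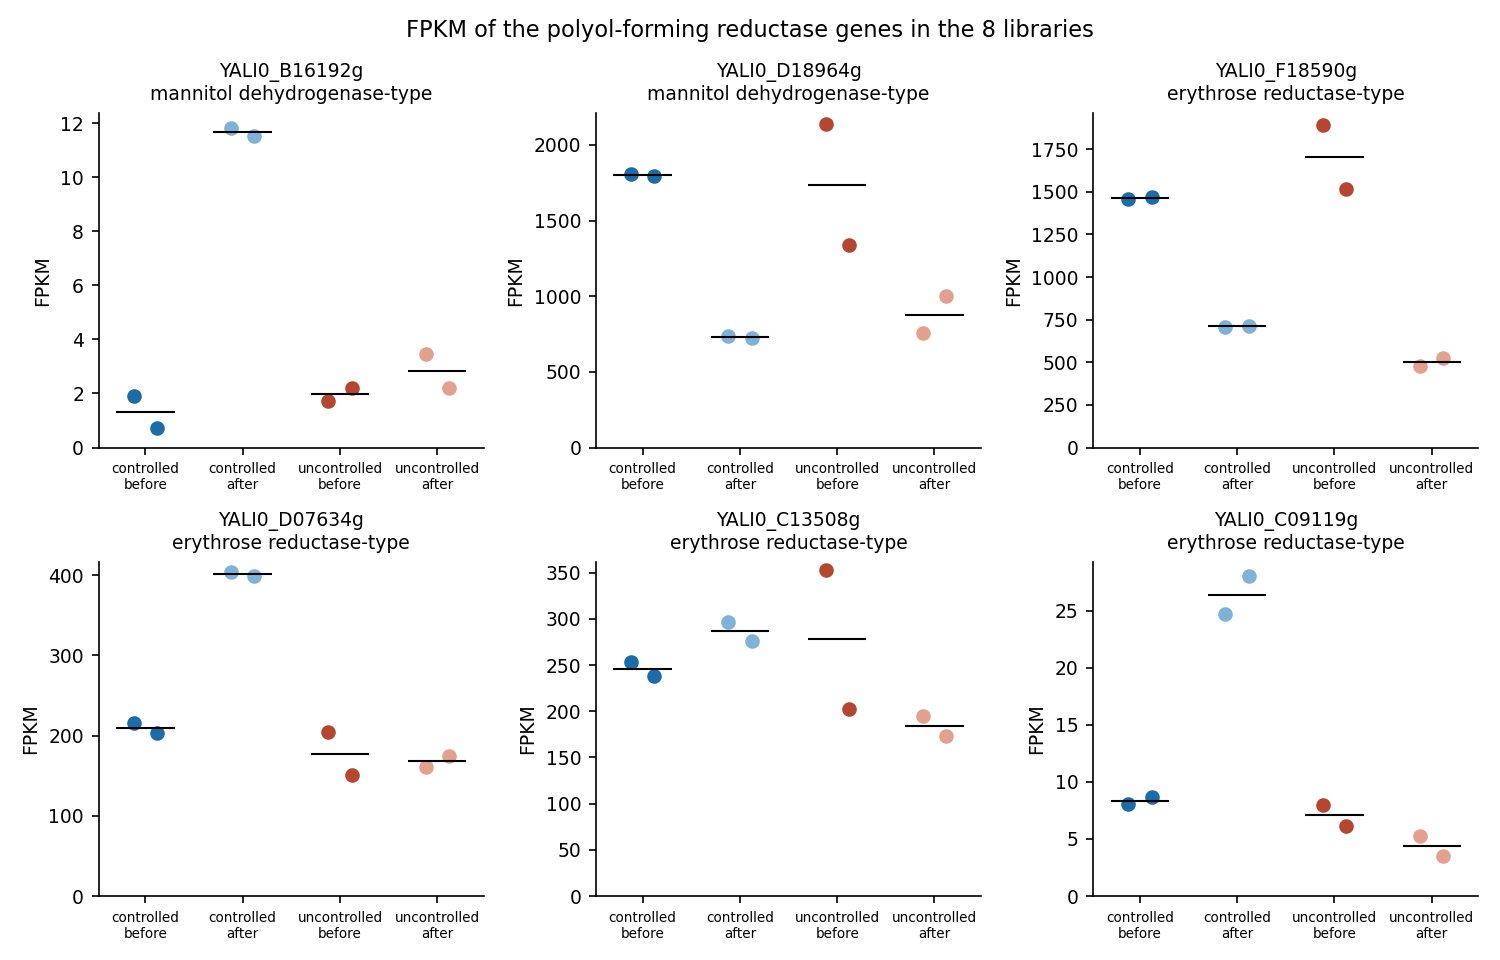
FPKM (vertical axis, linear, from 0, a separate scale for each gene) of the 6 genes in the 4 groups, with a point for each library and a bar at the mean of the 2 replicates. YALI0_D18964g and YALI0_F18590g were higher before than after glycerol limitation in both cultivations, whereas YALI0_B16192g, YALI0_D07634g and YALI0_C09119g were highest in the controlled culture after limitation.

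YALI0_D18964g, the abundant mannitol dehydrogenase-type gene, was about as high in both cultivations before glycerol limitation and lower after it. Its FPKM was 1804.5 and 1794.9 in pO2-1, 736 and 727 in pO2-2, 2140.2 and 1336 in pO2-UN-2, and 756 and 1000.03 in pO2-UN-3. All 4 libraries before limitation lay above all 4 after it. In order of the group means the levels were 1799.7 ± 6.78 (SD, n = 2) in pO2-1, 1738 ± 569 in pO2-UN-2, 878 ± 172 in pO2-UN-3 and 732 ± 6.61 in pO2-2. The groups before limitation did not differ beyond their spread, nor did those after it. The pO2-UN-2 replicates were 0.68 log2 units apart, and 99.2% of 254 genes of like level had replicates closer together in that group.

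YALI0_B16192g, the other mannitol dehydrogenase-type gene, was nearly silent except in the controlled culture after glycerol limitation. Its FPKM was 1.9 and 0.71 in pO2-1, 11.82 and 11.54 in pO2-2, 1.74 and 2.21 in pO2-UN-2, and 3.47 and 2.19 in pO2-UN-3. These stand for 8 and 3, 49 and 48, 7 and 9, and 14 and 9 fragments. Both pO2-2 libraries were above the other 6, whose groups overlapped in part. Even at its highest, in pO2-2, the gene held 1.58% and 1.56% of the summed FPKM of both mannitol dehydrogenase-type genes.

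YALI0_F18590g, the abundant erythrose reductase-type gene, came next to YALI0_D18964g in level. Its FPKM was 1458 and 1469 in pO2-1, 707 and 714 in pO2-2, 1892.1 and 1518 in pO2-UN-2, and 479.8 and 524 in pO2-UN-3. The groups did not overlap, and the order from high to low was pO2-UN-2 (1705 ± 265), pO2-1 (1463 ± 7.79), pO2-2 (711 ± 4.60) and pO2-UN-3 (502 ± 31.3).

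YALI0_D07634g, the gene with the hit to a yeast aldose reductase, was highest in the controlled culture after limitation. Its FPKM was 216 and 204 in pO2-1, 404 and 398 in pO2-2, 204 and 151 in pO2-UN-2, and 161 and 174 in pO2-UN-3. The pO2-2 libraries stood above the other 6. The other groups, with means of 209.7 ± 8.58, 178 ± 37.9 and 168 ± 9.43, overlapped in part.

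YALI0_C13508g, the gene annotated as an aldo-keto reductase, varied least over the groups, and the highest group mean was 1.56 times the lowest. Its FPKM was 254 and 238 in pO2-1, 297 and 277 in pO2-2, 353 and 203 in pO2-UN-2, and 195 and 173 in pO2-UN-3. The highest and the third lowest of the 8 values were the replicates of pO2-UN-2, which were 0.80 log2 units apart, further than for 97.5% of 929 genes of like level.

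YALI0_C09119g, the weakly expressed erythrose reductase-type gene, had an FPKM of 8.06 and 8.64 in pO2-1, 24.7 and 28.1 in pO2-2, 7.98 and 6.14 in pO2-UN-2, and 5.3 and 3.48 in pO2-UN-3. The values in pO2-2, from 115 and 131 fragments, were above those of the other 6 libraries, which held between 16 and 41 fragments each. The highest group mean was 6.01 times the lowest, a span exceeded among the 6 genes by the 8.95 times of YALI0_B16192g.

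The first comparison set the samples after glycerol limitation against those before it, while oxygen was kept available. The response split them by level. The 2 abundant genes fell, YALI0_D18964g to a mean 2.46 times lower and YALI0_F18590g to a mean 2.06 times lower. The 4 others rose, YALI0_B16192g 8.95 times, YALI0_C09119g 3.16 times, YALI0_D07634g 1.91 times and YALI0_C13508g 1.17 times in mean FPKM. Both enzyme types held genes of either direction.

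Tested with limma on log2(FPKM + 1) and adjusted over all genes, all 6 passed at an adjusted p under 0.05, 4 higher and 2 lower. So did most of the genome, 81.6% of 6218 genes, with 45.6% higher and 36% lower, and the count of 6 is read against that background. The log2 fold changes were -1.30 (SE 0.021, adjusted p = 8.0e-08) for YALI0_D18964g and -1.04 (SE 0.022, adjusted p = 2.0e-07) for YALI0_F18590g. For the risers they were 2.51 (SE 0.273, adjusted p = 2.5e-04) for YALI0_B16192g, 1.55 (SE 0.113, adjusted p = 4.0e-05) for YALI0_C09119g, 0.93 (SE 0.039, adjusted p = 3.1e-06) for YALI0_D07634g and 0.22 (SE 0.051, adjusted p = 0.0074) for YALI0_C13508g. Only YALI0_B16192g was also at or past a log2 fold change of 2, which 13.8% of all genes passed, 9.52% upwards and 4.29% downwards. The study names a minimum fold difference of 2 beside a log2 ratio, which is read here as a log2 value. At a plain 2-fold minimum YALI0_D18964g, YALI0_F18590g and YALI0_C09119g would pass too. The median of the 6 was 0.58 and that of all genes 0.13.

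The change of YALI0_B16192g rests on 97 fragments against 11, a ratio per depth of 8.95 with an exact 95% interval of 4.79 to 18.5 that covers counting error only. With log2(FPKM + 0.1) its log2 fold change was 3.21. That of YALI0_C13508g was lost when the libraries were rescaled to a common median of ratios, to 0.10 (adjusted p = 0.106), and in a joint fit of all 8 libraries (adjusted p = 0.399).

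The second comparison did the same without oxygen control. Here too the 2 abundant genes fell, YALI0_F18590g to a mean 3.40 times lower and YALI0_D18964g to a mean 1.98 times lower. None of the 6 passed the test as higher, and YALI0_B16192g had a mean 1.43 times higher after limitation. The genes that had risen under oxygen control showed no rise that passed the test, and YALI0_B16192g and YALI0_D07634g had overlapping replicates before and after limitation. The other 4 did not overlap, as 86.1% of all genes did not.

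In the limma fit, 2 of 6 passed, both lower, against 70.3% of 6185 genes in either direction, 48.9% higher and 21.5% lower. YALI0_F18590g was at -1.75 log2 units (SE 0.149, adjusted p = 5.8e-05) and YALI0_D18964g at -0.96 (SE 0.240, adjusted p = 0.0092). Without pO2-UN-3 replicate 1, the value of YALI0_D18964g was -0.76 (adjusted p = 0.057), and 1 gene passed. Those that did not pass were YALI0_B16192g at 0.35 (95% interval -0.36 to 1.06), YALI0_D07634g at -0.07 (-0.48 to 0.35), YALI0_C13508g at -0.54 (-1.13 to 0.05) and YALI0_C09119g at -0.59 (-1.27 to 0.08). YALI0_C13508g passed at -0.94 (adjusted p = 0.0021) without pO2-UN-2 replicate 2, and YALI0_C09119g passed in the joint fit of 8 libraries (adjusted p = 0.033). None of the 6 reached the minimum of 2, which 16.3% of all genes passed, 11.3% upwards and 5.01% downwards.

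The median of all genes moved up by 0.49 on the log2 scale in this comparison, and the median of the 6 genes was -0.57. All 6 values were below the all-gene median, YALI0_B16192g by 0.14 log2 units and YALI0_F18590g by 2.24. With the libraries rescaled to a common median of ratios, 5 of the 6 genes were lower and none higher, beside 32.4% higher and 33.5% lower of 6175 genes. YALI0_F18590g was then at -2.24 and past the minimum of 2. YALI0_D07634g was at -0.55 (adjusted p = 0.026), YALI0_C13508g at -1.02 (adjusted p = 0.012) and YALI0_C09119g at -1.0 (adjusted p = 0.019), while YALI0_B16192g was at 0.01 (adjusted p = 0.98). The fall of YALI0_F18590g and YALI0_D18964g thus did not depend on the scaling, whereas the calls for the other erythrose reductase-type genes did.

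**Figure D2:**
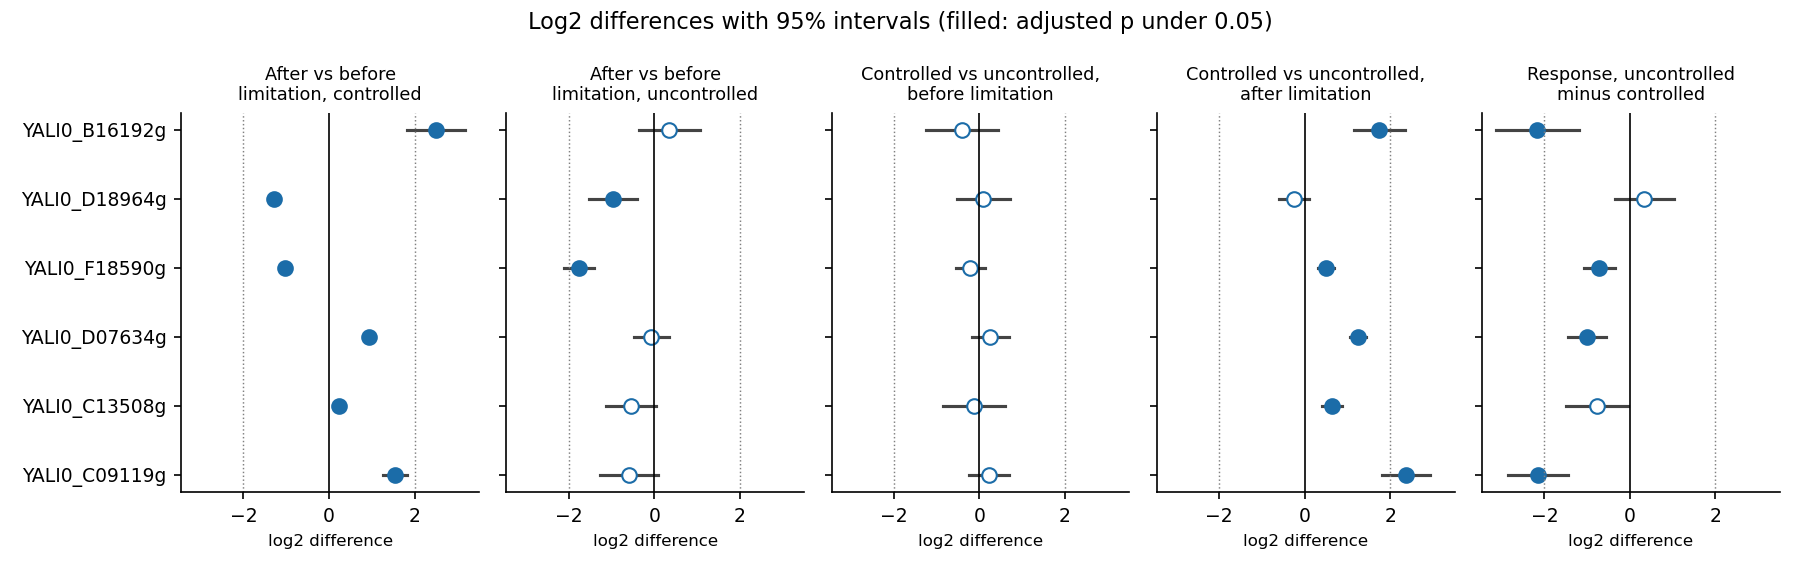
Log2 differences (horizontal axis) of the 6 genes in the 4 comparisons between groups and in the difference between both responses, with 95% intervals, filled where the adjusted p was under 0.05, and dotted lines at -2 and 2. Before limitation all 6 intervals hold 0, and after limitation 5 of 6 genes were higher in the controlled culture.

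Before glycerol limitation the cultivations did not differ in any of the 6 genes beyond the spread of the replicates. Controlled minus uncontrolled, the log2 differences ran from -0.41 for YALI0_B16192g to 0.25 for YALI0_D07634g, and 0 of 6 passed in the limma fit, with none at an unadjusted p under 0.05 either. In the same comparison 78.1% of 6158 genes passed, 47.2% higher and 30.9% lower, and 23.5% were past the minimum of 2, 14.4% higher and 9.18% lower. The intervals, which are wide, show what the libraries could have missed. They ran from -0.53 to 0.71 for YALI0_D18964g, -0.54 to 0.12 for YALI0_F18590g, -0.18 to 0.69 for YALI0_D07634g, -0.85 to 0.60 for YALI0_C13508g, -0.24 to 0.69 for YALI0_C09119g and -1.26 to 0.43 for YALI0_B16192g. Only YALI0_F18590g and YALI0_C09119g had replicates that did not overlap between the groups, as 89.7% of all genes had. All genes had a median difference of 0.31, and with the libraries rescaled YALI0_F18590g was lower under oxygen control at -0.53 (adjusted p = 0.011).

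Single libraries of pO2-UN-2 set the sign for the genes whose replicates lay far apart there. YALI0_D18964g was at -0.25 (adjusted p = 0.0011) without pO2-UN-2 replicate 2 and at 0.43 (adjusted p = 2.7e-04) without replicate 1. YALI0_C13508g was at 0.27 (adjusted p = 0.012) without replicate 1 and at -0.52 (adjusted p = 0.0017) without replicate 2. YALI0_F18590g passed at -0.37 (adjusted p = 4.3e-04) without replicate 2 and YALI0_D07634g at 0.47 (adjusted p = 0.0022) without replicate 1, so that 3 genes passed in either case. In these fits the lone library is assumed to vary as the controlled replicates did, which were much closer to each other.

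After glycerol limitation 5 of 6 genes were higher with oxygen control and none was lower. In mean FPKM the controlled culture was 6.01 times higher for YALI0_C09119g, 4.13 times for YALI0_B16192g, 2.39 times for YALI0_D07634g, 1.56 times for YALI0_C13508g and 1.42 times for YALI0_F18590g. YALI0_D18964g was at 0.833 times the uncontrolled level and did not pass. The genes that were higher were all 4 of the erythrose reductase type and 1 of the 2 of the mannitol dehydrogenase type.

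The log2 differences, controlled minus uncontrolled, were 2.36 (SE 0.221, adjusted p = 0.0011) for YALI0_C09119g, 1.75 (SE 0.237, adjusted p = 0.0032) for YALI0_B16192g, 1.25 (SE 0.075, adjusted p = 4.8e-04) for YALI0_D07634g, 0.64 (SE 0.091, adjusted p = 0.0038) for YALI0_C13508g and 0.50 (SE 0.072, adjusted p = 0.0038) for YALI0_F18590g, by limma with adjustment over all genes. That of YALI0_D18964g was -0.25 (95% interval -0.59 to 0.10, adjusted p = 0.18). Of 6209 genes 50% passed, 28.5% higher and 21.5% lower, and 3.16% were past the minimum of 2, 1.82% higher and 1.34% lower, which YALI0_C09119g alone of the 6 passed. With log2(FPKM + 0.1) YALI0_B16192g passed it too, at 2.04. The replicates of both groups did not overlap for any of the 6, as for 79.6% of all genes. Without pO2-2 replicate 2, YALI0_F18590g had an adjusted p of 0.054, at a difference of 0.50. Without pO2-UN-3 replicate 1, YALI0_D18964g was lower under oxygen control at -0.45 (adjusted p = 1.8e-04). The rescaled libraries again gave 5 of 6 genes higher. The median of the 6 was 0.95 and that of all genes 0.10. For YALI0_C09119g the fragments were 246 against 40, a ratio per depth of 6.03 with an exact 95% counting interval of 4.30 to 8.64. For YALI0_B16192g they were 97 against 23, a ratio of 4.13 with an interval of 2.60 to 6.83.

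Whether the response to glycerol limitation differed between cultivations was tested with an interaction term on all 8 libraries. The response without oxygen control was lower than with it for 4 of 6 genes, beside 67.2% of 6278 genes that passed, 29.1% lower and 38.1% higher. The differences were -2.16 (SE 0.421, adjusted p = 0.0024) for YALI0_B16192g, -2.14 (SE 0.302, adjusted p = 4.1e-04) for YALI0_C09119g, -1.0 (SE 0.192, adjusted p = 0.0022) for YALI0_D07634g and -0.71 (SE 0.153, adjusted p = 0.0038) for YALI0_F18590g. The first 2 were past the minimum of 2, as 18.7% of all genes were, 11.8% upwards and 6.85% downwards. They kept an adjusted p under 0.05 whichever library was left out. YALI0_B16192g was short of the minimum at -1.78 without pO2-1 replicate 2, YALI0_C09119g at -1.98 without pO2-UN-2 replicate 1, and both without pO2-UN-3 replicate 2, at -1.92 and -1.89. For YALI0_C13508g the difference was -0.76 (95% interval -1.49 to -0.04, adjusted p = 0.061). It passed at -1.0 (adjusted p = 0.019) in rescaled libraries, at -0.36 (adjusted p = 0.043) without pO2-UN-2 replicate 1 and at -1.16 (adjusted p = 3.1e-04) without replicate 2 of that group.

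YALI0_D18964g was the exception, with a difference of 0.34 (95% interval -0.35 to 1.03, adjusted p = 0.34). Its fall on glycerol limitation was -1.30 with and -0.96 without oxygen control, and the interval allows either response to be the stronger. Without pO2-UN-2 replicate 1 the difference was 0.68 (adjusted p = 0.020). YALI0_F18590g, the other abundant gene, fell in both cultivations and fell more without oxygen control.

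**Figure D3:**
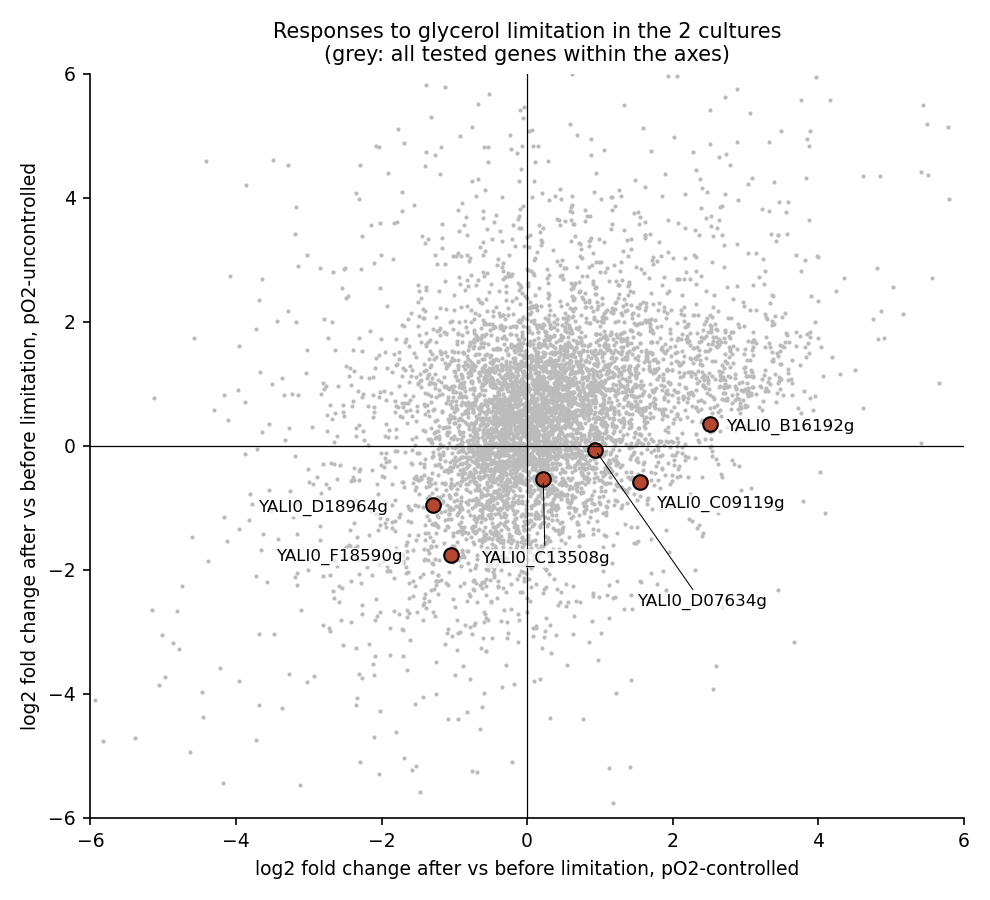
Log2 fold change after against before glycerol limitation in the pO2-controlled (horizontal) and pO2-uncontrolled culture (vertical), red for the 6 genes and grey for all genes tested in both, within the axes shown. YALI0_D18964g and YALI0_F18590g lie to the lower left, and the other 4 lie to the right of 0 with changes from -0.59 to 0.35 on the vertical axis.

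The composition of the erythrose reductase-type transcripts shifted as well. Before glycerol limitation YALI0_F18590g made up 75.3% and 76.5% of their summed FPKM in pO2-1 and 77.0% and 80.8% in pO2-UN-2. After limitation its share was 49.3% and 50.4% in pO2-2 and 57.0% and 59.9% in pO2-UN-3. YALI0_D07634g went the other way, from 11.1% and 10.6% to 28.2% and 28.1% with oxygen control, and from 8.32% and 8.03% to 19.1% and 19.9% without it. The share of YALI0_C13508g was between 10.8% and 23.2% in all libraries, and that of YALI0_C09119g between 0.325% and 1.98%. The shares of a library add up to the whole by construction, so that a fall of YALI0_F18590g raises the others.

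**Figure D4:**
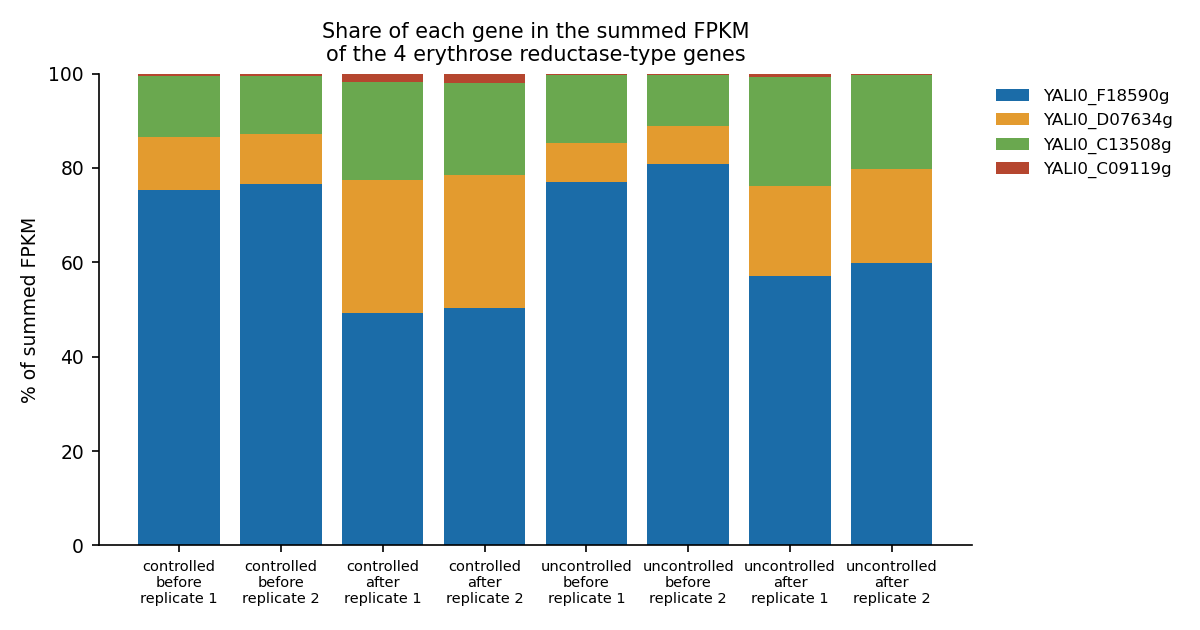
Share (vertical axis, in %) of each of the 4 erythrose reductase-type genes in their summed FPKM in each of the 8 libraries. YALI0_F18590g held 75.3% to 80.8% in the libraries before glycerol limitation and 49.3% to 59.9% in those after it.

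The summed FPKM of all 6 genes was 3742 and 3715 in pO2-1 and 2182 and 2155 in pO2-2. Without oxygen control it was 4599 and 3216 before and 1601 and 1878 after limitation. YALI0_D18964g and YALI0_F18590g together held 66.2% to 88.7% of this sum, so it followed those genes and was lower after limitation in both cultivations. The ratio of YALI0_D18964g to YALI0_F18590g was 1.24 and 1.22 in pO2-1, 1.04 and 1.02 in pO2-2, 1.13 and 0.880 in pO2-UN-2, and 1.58 and 1.91 in pO2-UN-3. The mannitol dehydrogenase-type gene was thus the higher of the pair in 7 of 8 libraries, by most in the uncontrolled culture after limitation.

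The course of the 6 genes over the 8 libraries was compared by the root mean square difference of log2(FPKM + 1), centred on each gene's mean, among 6277 genes. These points share their libraries and depth, and the values are descriptions without a test. The nearest pair among the 6 was YALI0_D18964g and YALI0_F18590g at 0.336, 1 gene of each enzyme type, with 78 genes closer to YALI0_D18964g. YALI0_D07634g lay at 0.408 from YALI0_C13508g and at 0.427 from YALI0_C09119g. The mannitol dehydrogenase-type genes were the most unlike pair, at 1.52. YALI0_B16192g was almost as far from YALI0_F18590g, at 1.51, so this distance is not particular to that type.

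Over the whole table, the genes most like YALI0_D18964g were YALI0_D15114g (0.0941), whose best KEGG hit is the nuclear pore protein Nup93, and YALI0_E33693g (0.147). Nearest to YALI0_F18590g were YALI0_B05104g (0.123), with a leucyl aminopeptidase hit, and YALI0_E30987g (0.128). YALI0_A20350g (0.127), with a triacylglycerol lipase hit, and YALI0_A10120g (0.138) were closest to YALI0_D07634g. For YALI0_C13508g these were YALI0_F29887g (0.139) and YALI0_E12463g (0.165), the latter an L-iditol 2-dehydrogenase, an enzyme that oxidises sorbitol and related polyols. The low genes had no close partner, with 0.264 for YALI0_C11825g beside YALI0_C09119g and 0.353 for YALI0_A08239g beside YALI0_B16192g.

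No annotated gene overlapped any of the 6, and the nearest neighbours were 113 to 3617 bp away. The use of strand in the counting is not given in the sources used here. Beside the low gene YALI0_B16192g, 113 bp away on the other strand, lies YALI0_B16214g, a serine or threonine dehydratase by its KEGG hit. Its mean FPKM was 209.7 in pO2-1, 69.8 in pO2-2, 0 in pO2-UN-2 and 73.0 in pO2-UN-3, an order unlike that of YALI0_B16192g. The neighbour on the other side, YALI0_B16170g, lies 888 bp upstream on the same strand and was, like YALI0_B16192g, highest in pO2-2, with a mean FPKM of 7.62 in pO2-1, 69.5 in pO2-2, 0.435 in pO2-UN-2 and 27.3 in pO2-UN-3. YALI0_D07656g, 2100 bp upstream of YALI0_D07634g on the same strand, was also highest in pO2-2, with 26.0, 293, 1.06 and 19.7 in the same order of groups. The part of these neighbours in the FPKM of both genes was not tested. Upstream of YALI0_C09119g, 932 bp away on the same strand, lies the elongation factor 1-alpha gene YALI0_C09141g, with a mean FPKM of 6779 in pO2-1, 15391 in pO2-2, 14090 in pO2-UN-2 and 14843 in pO2-UN-3. It rose on limitation by 1.18 log2 units with oxygen control, where YALI0_C09119g rose by 1.55, but was about as high in pO2-UN-3 as in pO2-2, where YALI0_C09119g differed 6.01 times. Its part in the FPKM of YALI0_C09119g was not tested.

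The other genes of these pathways were described from lists defined by KEGG number or locus tag. The list for the pentose phosphate pathway, which supplies erythrose 4-phosphate and NADPH, had 11 genes, and not all need belong to the pathway. With oxygen control 6 were higher and 3 lower after glycerol limitation (median log2 fold change 0.22), and without it 5 were higher and 3 lower (median 1.00, with 5 higher and 5 lower in rescaled libraries). After limitation 4 were higher and none lower with oxygen control (median 0.31). In rescaled libraries 4 were higher and 1 lower. These counts and medians include YALI0_C15378g, a weak ribose 5-phosphate isomerase hit with the GO term nucleic acid binding. It was among the lower genes in both responses to limitation. YALI0_F01628g, also listed in the erythritol catabolism cluster, was lower with oxygen control and higher without it. YALI0_D02277g, a weak transketolase hit without a GO term, was among the genes higher with oxygen control after limitation. The shares of all genes that passed are those given above for each comparison.

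The highest of this list over the 4 groups was 6-phosphogluconate dehydrogenase, YALI0_B15598g. Its mean FPKM was 1355 in pO2-1, 1580.0 in pO2-2, 1606.2 in pO2-UN-2 and 896 in pO2-UN-3. Its log2 response was 0.22 with oxygen control (adjusted p = 1.0e-04) and -0.84 without it (adjusted p = 8.3e-04). Transaldolase, YALI0_F15587g, and transketolase, YALI0_E06479g, which handle erythrose 4-phosphate, rose with oxygen control by 1.13 and 1.53 log2 units. Without it transaldolase fell by 0.59 (adjusted p = 0.0036) and transketolase was at -0.27 (adjusted p = 0.11). The interaction was -1.73 for transaldolase and -1.79 for transketolase, while over the list 5 genes were higher and 5 lower in the interaction (median 0.59), among them the 6-phosphogluconolactonase genes YALI0_E11671g at 1.43 and YALI0_C19085g at 1.11. Before limitation transaldolase and transketolase were lower with oxygen control, at -1.68 and -1.48, where no reductase gene passed. Glucose 6-phosphate dehydrogenase, YALI0_E22649g, rose by 0.79 with oxygen control and was at 0.11 (adjusted p = 0.48) without it. The genes past the minimum of 2 in some comparison were YALI0_D02277g, a weak transketolase hit that was higher with oxygen control at 3.26 before and 2.42 after limitation, and YALI0_F01628g, a ribose 5-phosphate isomerase that belongs to the erythritol catabolism genes below.

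Hexose phosphorylation and isomerisation, which lead glucose to fructose 6-phosphate and mannose 6-phosphate, had 5 genes by KEGG number. With oxygen control 2 were higher and 2 lower after limitation (median -0.07, with 1 higher and 3 lower in rescaled libraries). Without it 3 were higher and 1 lower (median 1.28). Before limitation 4 of the 5 were higher with oxygen control and 1 lower (median 2.24). Mannose 6-phosphate isomerase, YALI0_B18348g, had a mean FPKM of 374 in pO2-1, 162 in pO2-2, 35.9 in pO2-UN-2 and 136.5 in pO2-UN-3. It fell by 1.20 log2 units on limitation with oxygen control and rose by 1.90 without it. The genes YALI0_B22308g, YALI0_E20207g and YALI0_E15488g are hexokinases by KEGG hit only, and their substrates were not measured. Before limitation they were higher with oxygen control, at 2.24, 2.94 and 1.14. Glucose 6-phosphate isomerase, YALI0_F07711g, the highest of this list, rose by 0.62 with and fell by 0.69 without oxygen control.

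The 7 other polyol and glycerol phosphate genes had 4 higher and 3 lower with oxygen control (median 0.47) and 2 higher and 2 lower without it (median 0.09, with 2 higher and 3 lower in rescaled libraries). L-iditol 2-dehydrogenase, YALI0_E12463g, rose by 0.47 with and fell by 0.64 without oxygen control. Glycerol 3-phosphate dehydrogenase, YALI0_B02948g, rose by 0.79 with and by 3.81 without it. Of the dihydroxyacetone kinase genes, YALI0_F09273g, the highest of the list, rose by 0.84 with oxygen control and was at 0.12 (adjusted p = 0.54) without it, whereas YALI0_E20691g fell by 3.33 with oxygen control and was at 0.09 (adjusted p = 0.80) without it.

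The 5 genes listed as the erythritol catabolism cluster lie together on chromosome F. Among them YALI0_F01562g carries the GO term nucleic acid binding, so not all need be enzymes that break erythritol down. All 5 were lower after glycerol limitation with oxygen control (median -2.67), 4 of them past the minimum of 2. There 4 of the 6 reductase genes rose, 3 in rescaled libraries, and the 2 abundant ones fell. The summed FPKM of the erythrose reductase-type genes was lower too, 1935 and 1919 in pO2-1 against 1433 and 1417 in pO2-2. Without oxygen control 3 of the 5 cluster genes were higher and 2 lower (median 1.54). Before limitation all 5 cluster genes were higher with oxygen control (median 5.23), where none of the 6 reductase genes passed. YALI0_F01650g, an alcohol oxidoreductase of undefined substrate by its KEGG hit, had a mean FPKM of 1037 in pO2-1, 162 in pO2-2, 13.99 in pO2-UN-2 and 98.8 in pO2-UN-3. The kinase YALI0_F01606g was at -4.60 with oxygen control and at -1.48 without it. Genes YALI0_F01606g, YALI0_F01628g and YALI0_F01650g belong to another list too and are counted in both.

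**Figure D5:**
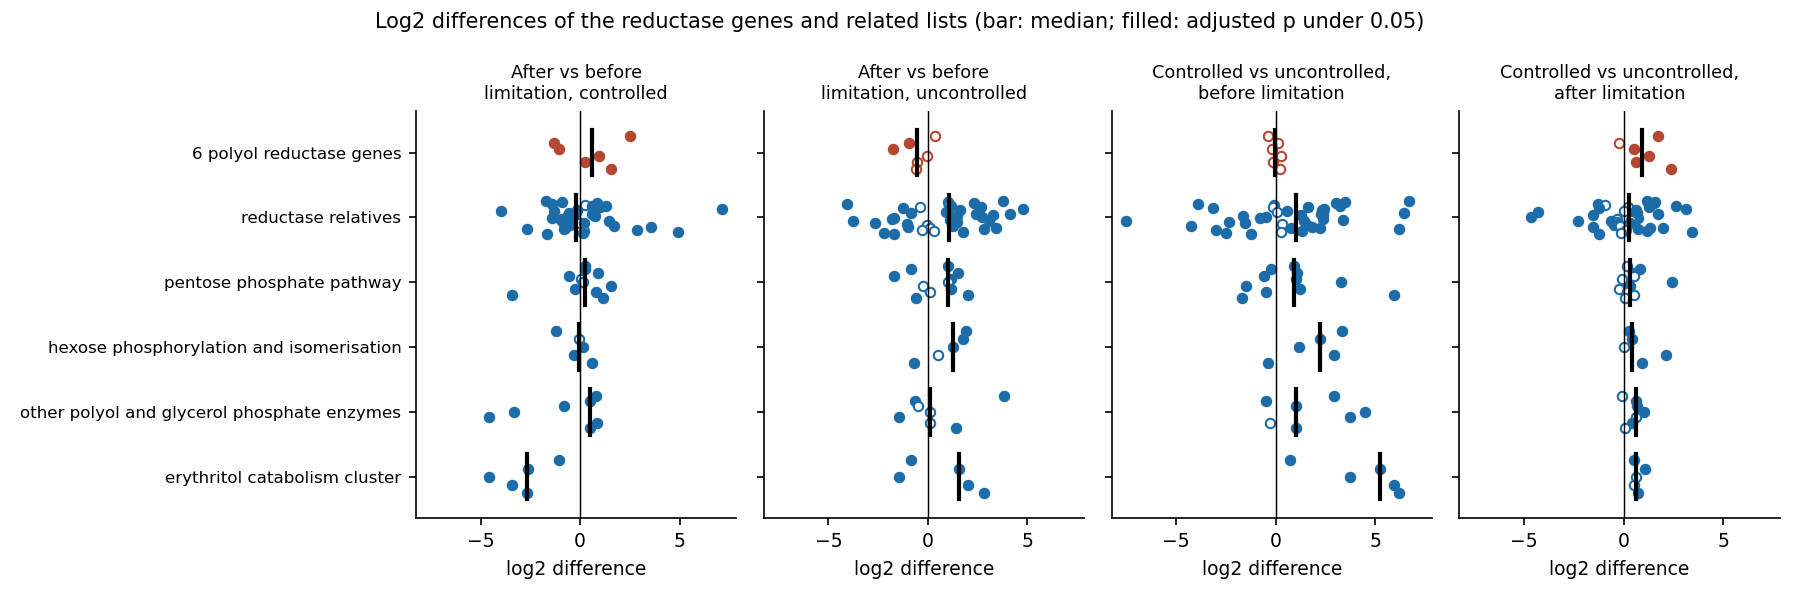
Log2 differences (horizontal axis) of the 6 reductase genes (red) and of the genes in 5 lists (blue) in the 4 comparisons between groups, with a point for each gene, filled where the adjusted p was under 0.05, and a bar at the median. Before limitation the 6 reductase genes lie between -0.41 and 0.25, whereas the 5 erythritol catabolism genes have a median of 5.23.

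The last list held the 40 other genes whose best KEGG number is one of the 2 broad oxidoreductase numbers of the 6 genes, which define no substrate. With oxygen control 15 of 39 tested were higher and 19 lower after limitation (median -0.20), and without it 21 of 38 were higher and 11 lower (median 1.05). After limitation 18 of 38 were higher with oxygen control and 11 lower (median 0.27), with 16 higher and 12 lower in rescaled libraries. The highest was YALI0_D09933g, with a mean FPKM of 40.9 in pO2-1, 112 in pO2-2, 7718 in pO2-UN-2 and 559 in pO2-UN-3.

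Among these are the related genes whose best hit is YALI0_B07117g, as it is for YALI0_C09119g, and their courses were mixed. YALI0_B07117g itself was lower with oxygen control, at -3.18 before and -1.21 after limitation, and YALI0_E18348g likewise at -4.27 and -1.54, whereas YALI0_C09119g was at 0.22 before and higher at 2.36 after it. YALI0_B21780g fell by 3.97 log2 units on limitation with oxygen control, where YALI0_C09119g rose by 1.55. YALI0_A15906g was at -1.43 with and at -4.05 without oxygen control. YALI0_F06974g was higher with oxygen control after limitation at 1.18 (adjusted p = 0.041), as YALI0_C09119g was, and also before it at 1.33 (adjusted p = 0.013). YALI0_D04092g was lower with oxygen control at both times, at -1.63 and -4.65. Both genes were near the floor on 1 side. The mean FPKM of YALI0_D04092g was 2.0 in pO2-1 and 1.5 in pO2-2. That of YALI0_F06974g was 2.3 in pO2-UN-2 and 3.25 in pO2-UN-3, so the sizes of these differences are imprecise. How far reads of these related genes could be counted for each other was not tested.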

How the data were processed

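The authors checked paired-end Illumina reads with FastQC, mapped them to the CLIB122 assembly (GCA_000002525.1) with TopHat2 and deposited FPKM per gene and library, estimated with Cufflinks. Tool versions are not given in the sources used here. Of 6394 genes, 6363 were in both deposited tables. A gene missing from one was taken as 0 there.

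Log2(FPKM + 1) was tested, for genes reaching an FPKM of 1 in 2 or more fitted libraries, with limma 3.58.1 in R 4.3.3, with a variance trend and Benjamini-Hochberg adjustment over all genes. Each comparison used its own 4 libraries, and the interaction all 8. The test was passed at an adjusted p under 0.05. The larger minimum was an absolute log2 fold change of 2. With 2 libraries against 2, an exact permutation test cannot go below p = 0.333. The fits were tested on simulated data.

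Depth was taken from steps of low FPKM values, of which 92.38% to 99.16% per library were within 0.1 of a whole fragment. Counting intervals (Clopper-Pearson, scipy 1.17.1) cover counting error only, and fragments are no molecules.

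The 6 genes are named in all comparisons. From the lists, genes past the minimum and the highest of each list could be named, and not all are. Others named are pathway enzymes and best-hit relatives chosen after their values were seen. Likeness names the nearest 2 genes or fewer. Members and lists were chosen with earlier results of these data known. Alternatives were another scaling, pseudocount and filters, a replicate block, a joint fit and leaving out each library. Python 3.11.15, pandas 2.3.3, numpy 2.4.6 and matplotlib 3.10.9 made the tables and plots. The table of gene symbols belongs to another strain and matched none of the 6 genes.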

Additional observations from a re-analysis of the deposited data

Results flagged for a closer look

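The response to glycerol limitation differed between the cultivations, by the interaction test itself, for 4 of the 6 genes. This count is at the background, since 67.2% of 6278 genes passed the same test. The uncontrolled response minus the controlled response was -2.16 on the log2 scale for YALI0_B16192g, -2.14 for YALI0_C09119g, -1.0 for YALI0_D07634g and -0.71 for YALI0_F18590g. The first 3 rose with oxygen control and did not pass without it. YALI0_F18590g fell in both cultivations and fell further without it. YALI0_B16192g has 3 to 49 fragments per library, which makes it the least precise of the 4. Over the libraries left out in turn its difference ran from -2.54 to -1.78, and that of YALI0_C09119g from -2.39 to -1.89.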

How the results depend on the processing

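Of 322 recalculated values of the 30 gene results, 298 kept the call, though some of these changed sign where neither fit passed. A further 18 passed where the reported value had not, 4 no longer passed and 2 changed sign past the test. In the controlled response all 6 genes passed whichever library was left out. With median-of-ratios scaling the uncontrolled response had 5 genes past the test in place of 2 and 1 in place of 0 past the minimum of 2, and the difference before limitation had 1 in place of 0. With log2(FPKM + 0.1) the difference after limitation had 2 genes past the minimum in place of 1. Leaving out a library gave 1 to 3 genes past the test for the uncontrolled response, 0 to 3 before limitation, 4 to 6 after it and 4 to 6 for the interaction, with 0 to 2 past the minimum. The interaction had 0 genes past the minimum without pO2-UN-3 replicate 2 and 1 without pO2-1 replicate 2 or pO2-UN-2 replicate 1. The sign changes past the test were both in the difference before limitation. YALI0_D18964g was at -0.25 without pO2-UN-2 replicate 2 and 0.43 without replicate 1. YALI0_C13508g was at 0.27 without pO2-UN-2 replicate 1 and -0.52 without replicate 2. Signs also changed where neither fit passed. Before limitation, rescaling put YALI0_D18964g at -0.23, YALI0_D07634g at -0.06 and YALI0_C09119g at -0.06. In the uncontrolled response YALI0_D07634g was at 0.15 without pO2-UN-2 replicate 1. The cause was not tested, and a lone library is assumed to vary like the other group.

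Replicate numbers did not pair the libraries (correlations of 0.034, -0.052, 0.036 and 0.042 between same-numbered deviations, and -0.142 in the uncontrolled response over the 3905 better expressed genes). With the replicate number as a block, YALI0_C13508g passed in the uncontrolled response at -0.54 (adjusted p = 0.025) and in the interaction at -0.76 (adjusted p = 0.030), and no other call changed. A crossed block in the uncontrolled culture, chosen after seeing the data, changed 1 of 6 calls. Depth limits YALI0_B16192g and YALI0_C09119g, and replicate spread limits every uncontrolled value.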
